A study of Homo sapiens with 8 samples.

Results

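The genes described here are the NF-kB transcription factor subunits NFKB1, NFKB2, RELA, RELB and REL, the inhibitors NFKBIA and NFKBIE, and the feedback and survival targets TNFAIP3, TRAF1 and BIRC3. They were taken by gene symbol from the deposited RNA sequencing tables, in which they are 10 of 60592 rows, and all 10 passed the filter on low values. All samples were WSU-DLCL2, an established cell line from human diffuse large B-cell lymphoma (DLBCL). The first group, FDX1-OE ES, overexpressed FDX1 and received 15 nM elesclomol (ES), a copper-carrying drug that brings the metal into cells. The second, control ES, had the genotype label WT and received the same dose. The third, FDX1-OE DMSO, and the fourth, control DMSO, were the same overexpressing and WT cells with the solvent DMSO. Each group held 2 libraries, 8 in all, taken at 48 h. The series title asks how FDX1, a mitochondrial iron-sulfur protein, alters the response to elesclomol. How FDX1 was overexpressed, and whether in a clone or a pool, is not stated in the labels. Nor do the labels say whether replicates were grown as separate cultures, so p-values here reflect the spread between these samples alone, and that spread may be technical.

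NF-kB factors are dimers of Rel proteins that wait in the cytoplasm bound to inhibitors of the IkB family. Signals from receptors of the TNF, Toll-like and B-cell antigen families activate kinases that mark the inhibitor for destruction, after which the dimer enters the nucleus and binds kB sites in DNA. Among its targets are the genes of its own inhibitors and of the deubiquitinase TNFAIP3 (A20), so the response limits itself. In diffuse large B-cell lymphoma, and most of all in its activated B-cell-like form, this pathway supports survival.

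The kB sites can be seen in the promoter sequence of several of these genes. RefSeq windows on the build GRCh38.p14, from 250 bases before to 50 bases after an annotated start, were matched to 8 of the 10 genes, with 14 windows in all. RELB and NFKBIE were not matched. A match to the NF-kB consensus, searched on both strands, was found in 7 of the 14 windows and in 6 of the 8 genes. Over the whole table the match was present in 11.27% of 35116 windows and in 13.25% of 27305 genes. The stretches below are shown because they hold the matches in the genes whose values follow, with the matched bases in capitals and each sequence written along the strand of its gene.
NFKB1, chr4:102501300-102501329, plus strand: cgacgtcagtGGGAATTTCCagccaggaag
NFKB2, chr10:102394462-102394491, plus strand: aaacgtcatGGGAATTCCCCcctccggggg
NFKB2, chr10:102395674-102395703, plus strand: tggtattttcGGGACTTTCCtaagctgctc
REL, chr2:60881518-60881547, plus strand: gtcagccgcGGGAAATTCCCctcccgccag
NFKBIA, chr14:35404781-35404870, minus strand: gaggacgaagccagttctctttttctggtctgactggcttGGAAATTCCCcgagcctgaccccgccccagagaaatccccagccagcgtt
TNFAIP3, chr6:137867188-137867217, plus strand: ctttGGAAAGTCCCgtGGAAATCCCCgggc
BIRC3, chr11:102317245-102317398, plus strand: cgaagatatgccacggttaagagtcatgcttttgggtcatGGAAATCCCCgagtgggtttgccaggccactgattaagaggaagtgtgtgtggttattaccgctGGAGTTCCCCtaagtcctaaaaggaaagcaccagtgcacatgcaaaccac

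The NFKB1 match began 49 bases before the start site and the NFKBIA match 81 bases before it. TNFAIP3 held a pair of matches that began 67 and 55 bases before its start. BIRC3 also held a pair, which began 199 and 135 bases before the start. The capitals of REL, and those of the first NFKB2 stretch, cover a pair of matches shifted by 1 base. NFKB2 held 5 matches over 2 of its 3 windows. No match lay in the 2 windows of RELA or the 3 windows of TRAF1. A match is a description of the sequence, and binding was not measured in this series.

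The values were read as FPKM, fragments scaled to gene length and library size, though no header names a unit. On that reading, levels of different genes can be set side by side. FDX1 stood at 60.7 and 59.4 FPKM in FDX1-OE ES libraries, 9.88 and 10.0 in control ES, 59.8 and 56.0 in FDX1-OE DMSO, and 10.8 and 10.4 in control DMSO, as the labels have it. The FDX1-OE ES libraries stood apart from the others in their FPKM sums (408018 and 403024, against 445716 to 451027 elsewhere), in their share of mitochondrially encoded mRNA (14.7% and 11.9%, against 16.9% to 17.6%) and in their replicate spread. The median absolute log2 difference between replicates was 0.16 in FDX1-OE ES, 0.09 in control ES and 0.08 in each DMSO group. B-cell markers were present in every library, with a summed level of 1391 and 1355 FPKM in FDX1-OE ES, 1476 and 1490 in control ES, 1477 and 1497 in FDX1-OE DMSO, and 1498 and 1461 in control DMSO. The sum was lowest in FDX1-OE ES, where limma called CD22 (log2 fold change -0.53) and CD79B (-0.34) lower and CD79A (0.22) and PAX5 (0.28) higher with ES, with adjusted p of 2.538e-04, 0.00437, 0.0233 and 0.0147 that reached 0.00393, 0.302, 0.444 and 0.994 over the alternative settings. Of 8 T and NK cell markers, CD3D, CD3G, CD2 and GNLY were at 0 in all 8 libraries, while TRAC alone gave 70.1 to 85.5 FPKM. That list summed to 82.3 and 80.9 FPKM in FDX1-OE ES, 71.9 and 70.2 in control ES, 81.0 and 85.6 in FDX1-OE DMSO, and 82.2 and 79.0 in control DMSO. Myeloid markers summed to 0.638 FPKM or less, with S100A8, S100A9 and FCGR3A at 0 in all 8 libraries, and epithelial and fibroblast markers to 1.77 FPKM or less. The part of the mitochondrial share, the B-cell markers, the TRAC level and the replicate spread in the results that follow was not tested.

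NFKBIA, which codes for IkB-alpha, had the highest level of the 10 genes in all 4 groups. Its mean was 80.7 ± 9.15 FPKM in FDX1-OE ES, 43.0 ± 2.17 in control ES, 51.1 ± 2.58 in FDX1-OE DMSO and 60.9 ± 1.09 in control DMSO (SD, n = 2 each). NFKB1, RELA and NFKB2 came next in every group, then RELB, then BIRC3. The ranges of NFKB1, NFKB2 and RELA overlapped in FDX1-OE ES, so their order there is not resolved. RELA and NFKB2 overlapped in control DMSO, and no 2 of the 3 overlapped in the other 2 groups. REL, NFKBIE, TRAF1 and TNFAIP3 held the last 4 places in control ES and both DMSO groups. In FDX1-OE ES, REL was the lowest, with a range that overlapped that of TNFAIP3 above it, and BIRC3, TRAF1 and NFKBIE overlapped in turn. BIRC3 and REL overlapped in control ES and FDX1-OE DMSO, and TNFAIP3 and TRAF1 in FDX1-OE DMSO.

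**Figure D1:**
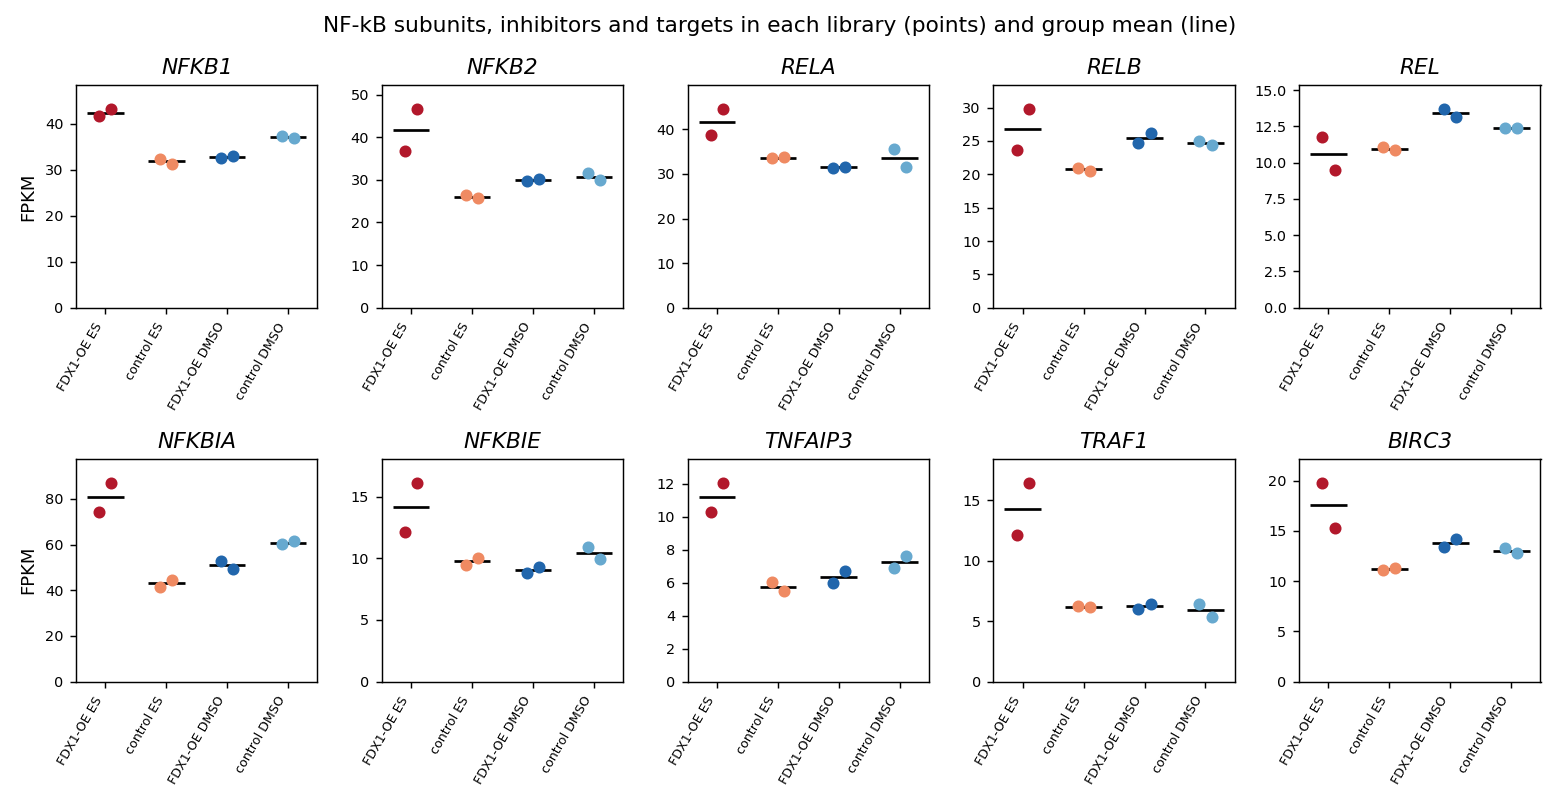
FPKM (vertical axes from 0) of each of the 10 genes in each library (points) with the group mean (line), for FDX1-OE ES, control ES, FDX1-OE DMSO and control DMSO from left to right. NFKBIA, TNFAIP3 and TRAF1 show the FDX1-OE ES libraries above all others, and REL shows them level with control ES and below both DMSO groups.

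In FDX1-OE cells, ES was accompanied by higher levels of 8 of the 10 genes and a lower level of 1, REL. A gene was called where limma's adjusted p, over all 12063 genes tested, was below 0.05. The share of all genes called was 47.1% in the higher direction, 13.7% in the lower and 60.8% in either. The median log2 fold change was 0.42 over the 10 genes and 0.25 over all genes. Both ES libraries lay above both DMSO libraries for the 8 genes and below them for REL, beside 58.9% and 20.1% of all genes tested. When libraries were scaled by median ratios, which moves the all-gene median from 0.25 to 0.00, the calls fell to 3 higher (NFKBIA, TNFAIP3 and TRAF1) and 1 lower (REL), beside 25.4% of all genes higher and 27.2% lower under that scaling. In a bulk culture, fewer cells of a kind and less RNA per cell cannot be told apart.

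Within ES, FDX1-OE cells had higher levels than control cells for 9 of the 10 genes, and REL was the exception. The share of all genes called was 31.1% higher, 10.4% lower and 41.5% in either direction. The median log2 fold change was 0.54 over the 10 genes and 0.16 over all genes. Both FDX1-OE libraries lay above both control libraries for the 9 genes, beside 50.6% of all genes above and 18.5% below. NFKB1, NFKB2, NFKBIA, TNFAIP3, TRAF1 and BIRC3 were called under all 16 alternative settings, and 6 was also the count under median-ratio scaling, which moves the all-gene median to 0.00 and the share of all genes called higher to 15.1%. This comparison and the one in FDX1-OE cells share the FDX1-OE ES libraries.

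Control cells did not show such higher levels. ES was accompanied by no higher call in control cells and by 1 lower call, NFKBIA, where the share of all genes called was 6.74% higher, 1.00% lower and 7.74% in either direction. The median log2 fold change was -0.21 over the 10 genes and 0.09 over all genes. Both ES libraries lay below both DMSO libraries for 7 of the 10 genes, beside 17.1% of all genes tested, and above them for none, beside 48.2%. The single call was lost without either control ES library or either control DMSO library. Without either FDX1-OE ES library NFKB1, NFKB2 and RELB were called lower as well. The share of all genes called lower also fell without a control library and rose without an FDX1-OE ES library.

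The ES effect in FDX1-OE cells minus that in control cells, tested as an interaction, passed for 6 of the 10 genes, NFKB1, NFKB2, NFKBIA, NFKBIE, TNFAIP3 and TRAF1. All 6 were positive, meaning a larger ES effect in FDX1-OE cells. Over all genes 13.9% were called positive, 5.06% negative and 19.0% in either direction. The median was 0.62 over the 10 genes and 0.15 over all genes. NFKB1, NFKBIA and TNFAIP3 passed under all 15 alternatives. The count was 4 under median-ratio scaling, where 5.85% of all genes were positive and 9.4% negative. It fell without the first control DMSO library, the first control ES library or either FDX1-OE DMSO library. It rose, with REL negative, without the first FDX1-OE ES library. In each of these fits with a library left out, the share of all genes called moved the same way as the count.

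Without ES, overexpression of FDX1 was accompanied by no call among the 10 genes in limma's test. NFKB1 and NFKBIA had an unadjusted p below 0.05, both lower in FDX1-OE DMSO, at log2 fold changes of -0.17 and -0.25. The share of all genes called was 0.00829%, which is 1 gene, FDX1 itself. The median over the 10 genes was -0.06, against 0.00 over all genes. Libraries did not overlap for 2 higher and 4 lower genes of the 10, beside 19.5% of all genes in each direction.

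**Figure D2:**
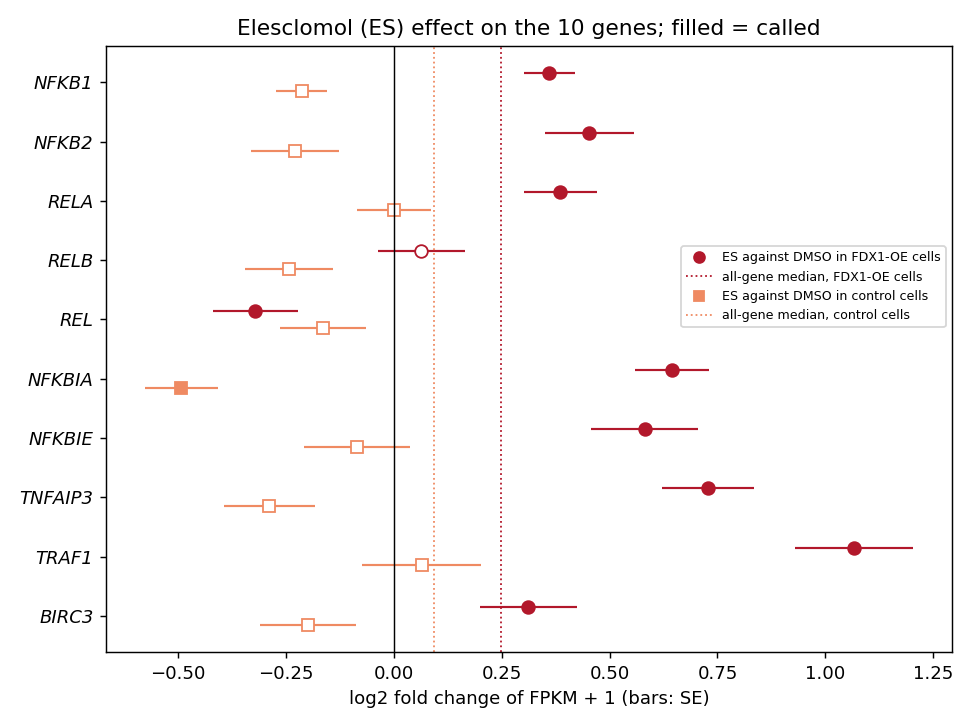
Log2 fold change of FPKM + 1, ES against DMSO (horizontal axis, bars SE), for each of the 10 genes in FDX1-OE cells (circles) and control cells (squares), filled where called, with the all-gene median of each comparison as a dotted line. The 8 higher calls and 1 lower call in FDX1-OE cells stand beside the single lower call, NFKBIA, in control cells.

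Among the subunits, NFKB1 and NFKB2 are made as the precursors p105 and p100, which are processed to the DNA-binding subunits p50 and p52. NFKB1 (GRCh38, chr4:102501329-102617302) had 41.6 and 43.2 FPKM in FDX1-OE ES, 32.4 and 31.3 in control ES, 32.6 and 33.0 in FDX1-OE DMSO, and 37.4 and 36.8 in control DMSO. The FDX1-OE ES libraries were the highest, control DMSO came next, and the other 2 groups lay close together below. The log2 fold change was 0.36 (SE 0.06, adjusted p = 0.00111) for ES in FDX1-OE cells, 0.40 (adjusted p = 0.00189) for FDX1-OE against control in ES and 0.57 (SE 0.08, adjusted p = 0.00620) for the interaction. In control cells it was -0.21 (adjusted p = 0.0650).

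NFKB2 (chr10:102394110-102402529), the subunit of the non-canonical arm, had 36.7 and 46.7 FPKM in FDX1-OE ES, 26.4 and 25.8 in control ES, 29.8 and 30.2 in FDX1-OE DMSO, and 31.7 and 29.9 in control DMSO. Both FDX1-OE ES libraries exceeded all 6 others, with a wide gap between them, and control ES lay below both DMSO groups. The log2 fold change was 0.45 (SE 0.10, adjusted p = 0.00556) for ES in FDX1-OE cells and 0.65 (adjusted p = 0.00250) for FDX1-OE against control in ES. Its interaction was 0.68 (SE 0.15, adjusted p = 0.0183), and did not pass under 8 of 15 alternatives, namely without any one of the control ES, FDX1-OE DMSO or control DMSO libraries (adjusted p 0.0533 to 0.0710), with no filter on low values (0.0738) and under median-ratio scaling (0.0516). Under median-ratio scaling the adjusted p for ES in FDX1-OE cells was 0.197 for NFKB2 and 0.308 for NFKB1.

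RELA, RELB and REL carry the transactivation domains of the dimers. RELA (p65, chr11:65653596-65663094) had 38.6 and 44.6 FPKM in FDX1-OE ES, 33.5 and 33.7 in control ES, 31.4 and 31.6 in FDX1-OE DMSO, and 35.6 and 31.6 in control DMSO. FDX1-OE ES was the highest without overlap, and the ranges of control ES and control DMSO overlapped. RELA rose with ES in FDX1-OE cells by a log2 fold change of 0.39 (SE 0.09, adjusted p = 0.00490). In ES it was higher in FDX1-OE than in control cells by 0.30 (adjusted p = 0.0248), a call lost under 7 of 16 alternatives. Among these were the fits without either control ES library or the second FDX1-OE ES library. Neither RELA call passed under median-ratio scaling (0.331 and 0.290).

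RELB (chr19:45001430-45038198), the partner of p52, had 23.7 and 29.8 FPKM in FDX1-OE ES, 20.9 and 20.5 in control ES, 24.6 and 26.1 in FDX1-OE DMSO, and 25.0 and 24.4 in control DMSO. The FDX1-OE ES libraries lay on either side of both DMSO groups and above control ES. The log2 fold change against control ES was 0.34 (SE 0.10, adjusted p = 0.0275). That call was lost under 6 of 16 alternatives, among them median-ratio scaling and the fits without either control ES library. ES in FDX1-OE cells gave 0.06 (adjusted p = 0.601) for RELB, and the sign turned under median-ratio scaling and quantile normalization and without the second FDX1-OE ES library. Without the first FDX1-OE ES library RELB passed, at 0.22 (adjusted p = 0.0167).

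REL (c-Rel, chr2:60881521-60931610), the subunit most tied to lymphocytes, moved the other way. It had 11.7 and 9.46 FPKM in FDX1-OE ES, 11.1 and 10.8 in control ES, 13.7 and 13.1 in FDX1-OE DMSO, and 12.4 and 12.4 in control DMSO. All 4 ES libraries lay below all 4 DMSO libraries. REL fell with ES in FDX1-OE cells by 0.32 on the log2 scale (SE 0.10, adjusted p = 0.0219). That call was lost under 6 of 16 alternatives. Among these were equal FPKM totals and the fits without either FDX1-OE DMSO library or the second FDX1-OE ES library. In control cells the log2 fold change of REL was -0.16 (adjusted p = 0.314), and the interaction was -0.16 (adjusted p = 0.445).

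RELA overlaps an annotated gene on the opposite strand, TNFAIP3 overlaps an antisense gene, and REL overlaps 2 other annotated RNAs on its own strand. The handling of strands in the authors' counting is not given, so values of these 3 genes may include reads of their neighbours.

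The subunits can also be compared within each library, by shares and ratios that do not depend on how libraries are scaled. Their sum does depend on the scaling. As deposited, their FPKM summed to 152 and 174 in FDX1-OE ES, 124 and 122 in control ES, 132 and 134 in FDX1-OE DMSO, and 142 and 135 in control DMSO. REL made up 7.71% and 5.44% of that sum in FDX1-OE ES, 8.93% and 8.87% in control ES, 10.4% and 9.79% in FDX1-OE DMSO, and 8.74% and 9.18% in control DMSO. REL's share was therefore lowest in FDX1-OE ES and highest in FDX1-OE DMSO, and the control groups overlapped. The ratio of RELB to RELA was 0.612 and 0.669 in FDX1-OE ES, 0.625 and 0.610 in control ES, 0.785 and 0.825 in FDX1-OE DMSO, and 0.702 and 0.772 in control DMSO. All ES libraries thus had a lower RELB to RELA ratio than any DMSO library. NFKB2 to NFKB1 was 0.883 and 1.08 in FDX1-OE ES, a range that held both FDX1-OE DMSO libraries (0.914 in each), with control ES at 0.813 and 0.826 and control DMSO at 0.847 and 0.811. An exact permutation test of 2 against 2 libraries cannot give a p below 0.333, so these ratios are descriptions.

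**Figure D3:**
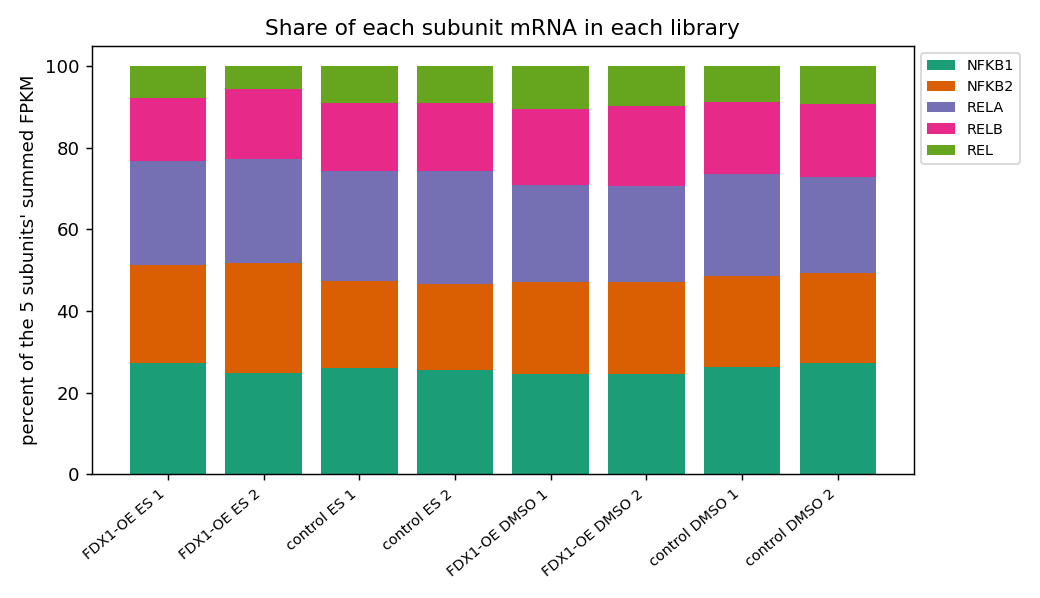
Share of the summed FPKM of the 5 subunits (vertical axis, percent, from 0) held by each subunit in each library, in the order FDX1-OE ES, control ES, FDX1-OE DMSO and control DMSO. The REL segment is smallest in the FDX1-OE ES libraries, at 7.71% and 5.44%.

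Of the inhibitors, IkB-alpha is the rapid feedback inhibitor of the canonical arm, and NFKBIE codes for IkB-epsilon, a later and more lymphoid one. NFKBIA (chr14:35401511-35404749) had 74.2 and 87.1 FPKM in FDX1-OE ES, 41.5 and 44.6 in control ES, 52.9 and 49.3 in FDX1-OE DMSO, and 60.1 and 61.6 in control DMSO. The 4 groups did not overlap, and ES stood above DMSO in FDX1-OE cells and below it in control cells. NFKBIA rose with ES in FDX1-OE cells by a log2 fold change of 0.64 (SE 0.09, adjusted p = 4.031e-04), or 1.58 times in mean FPKM. In control cells it fell by 0.49 on the log2 scale (SE 0.09, adjusted p = 0.0191). That fall was not called without any one of the 4 control libraries, where adjusted p ran between 0.0954 and 0.113, nor without the filter on low values (0.0943).

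The interaction for NFKBIA was 1.14 (SE 0.12, adjusted p = 0.00208), the largest of the 10 genes, and 0.99 when taken relative to the all-gene median. FDX1-OE exceeded control cells in ES by 0.89 (adjusted p = 4.123e-04). Per unit of RELA, NFKBIA stood at 1.92 and 1.95 in FDX1-OE ES, 1.24 and 1.32 in control ES, 1.68 and 1.56 in FDX1-OE DMSO, and 1.69 and 1.95 in control DMSO. The NFKBIA to RELA ratio was thus lowest in control ES, and FDX1-OE ES overlapped control DMSO.

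NFKBIE (chr6:44258166-44265788) had 12.2 and 16.1 FPKM in FDX1-OE ES, 9.49 and 10.1 in control ES, 8.80 and 9.29 in FDX1-OE DMSO, and 10.9 and 9.94 in control DMSO. FDX1-OE ES was above all others, and the control groups overlapped. The log2 fold change was 0.58 (SE 0.12, adjusted p = 0.00397) for ES in FDX1-OE cells, 0.48 (adjusted p = 0.0161) against control ES and 0.67 (SE 0.17, adjusted p = 0.0339) for the interaction. For ES in FDX1-OE cells the adjusted p was 0.0578 under median-ratio scaling and 0.0619 under quantile normalization. Against control ES the call was lost under 6 of 16 alternatives. Among these were median-ratio scaling, quantile normalization and the fits without either control ES library. The interaction was lost under 9 of 15 alternatives. They included the fits without any one of the control ES, FDX1-OE DMSO or control DMSO libraries. They also included no filter on low values, median-ratio scaling and quantile normalization.

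TNFAIP3 (A20, chr6:137867188-137883312) edits ubiquitin chains and switches the pathway off. Its FPKM was 10.3 and 12.1 in FDX1-OE ES, 6.05 and 5.46 in control ES, 5.99 and 6.68 in FDX1-OE DMSO, and 6.90 and 7.61 in control DMSO. FDX1-OE ES stood clear of the other 6 libraries, and control ES lay below control DMSO. TNFAIP3 rose with ES in FDX1-OE cells by 0.73 (SE 0.11, adjusted p = 6.225e-04) and was 0.85 higher than in control ES (adjusted p = 0.00104). The interaction was 1.02 (SE 0.15, adjusted p = 0.00629), and the change in control cells was -0.29 (adjusted p = 0.128).

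TRAF1 (chr9:120902393-120929173), a signalling adaptor of TNF receptors, had the largest change of the 10 genes with ES in FDX1-OE cells. It had 12.2 and 16.5 FPKM in FDX1-OE ES, 6.23 and 6.16 in control ES, 6.04 and 6.45 in FDX1-OE DMSO, and 6.43 and 5.36 in control DMSO. Only the FDX1-OE ES libraries were apart, and the other 3 groups overlapped. The log2 fold change was 1.07 (SE 0.14, adjusted p = 3.560e-04) for ES in FDX1-OE cells and 1.08 (adjusted p = 0.00117) against control ES, a ratio of 2.29 and of 2.31 in mean FPKM. The change in control cells was 0.07 (adjusted p = 0.790) and the interaction 1.00 (SE 0.19, adjusted p = 0.0142). The interaction was not called under 5 of 15 alternatives, among them no filter on low values. The others were the fits without the first control DMSO library, the first control ES library or either FDX1-OE DMSO library. No match to the consensus lay in its 3 windows.

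BIRC3 (chr11:102317450-102339403) codes for cIAP2, a ubiquitin ligase that blocks cell death. It had 19.8 and 15.3 FPKM in FDX1-OE ES, 11.1 and 11.3 in control ES, 13.4 and 14.2 in FDX1-OE DMSO, and 13.3 and 12.8 in control DMSO. FDX1-OE ES was highest and control ES lowest, with both DMSO groups between. Against control ES the log2 fold change was 0.59 (SE 0.11, adjusted p = 0.00482). ES in FDX1-OE cells gave 0.31 (adjusted p = 0.0394), 0.06 above the all-gene median, a call that 11 of 16 alternatives did not give. Among these were the fits without the first FDX1-OE ES library and without any one of the control ES, FDX1-OE DMSO or control DMSO libraries. Over the alternatives this log2 fold change fell as low as 0.04, and its adjusted p reached 0.778. BIRC3 had an interaction of 0.51 (SE 0.16, adjusted p = 0.0565), which was not called.

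The other genes of the pathway were taken as 92 listed genes, of which 79 were tested. The lists were chosen with earlier results of these data known, so shares above those of all genes are given as descriptions. Of these, 7 passed the filter on low values only through the FDX1-OE ES libraries (CCL4, CCR7, CD44, PRKCB, TLR2, TNFAIP2 and TNFRSF1A) and 4 only through the ES libraries (CCL22, STAT5A, TLR4 and TNFRSF13B). Their level with ES is what brought these genes into the test, so the lists are described over the 68 genes that reached 1 FPKM in at least 2 DMSO libraries, beside the 10948 genes of the whole table that did so. All of the 10 NF-kB genes had over 1 FPKM in every DMSO library.

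With ES in FDX1-OE cells 39 of the 68 pathway genes were higher and 6 lower, beside 44.1% and 15.1% of the 10948 genes. Against control ES 36 were higher and 2 lower, beside 28.5% and 11.4%. The medians of the log2 fold changes were 0.35 and 0.29, beside 0.21 and 0.13. In control cells ES gave 3 higher and 2 lower, beside 5.86% and 1.11%. The interaction was positive for 22 and negative for 1, beside 12.4% and 5.54%. Over all 79 genes, FDX1-OE against control in DMSO gave no call in limma's test, with 4 genes at an unadjusted p below 0.05. Under median-ratio scaling ES in FDX1-OE cells gave 32 higher and 13 lower of the 79, beside 25.4% and 27.2% of all 12063 genes. Those 79 include the 11 genes that their level with ES brought into the test. The 68 were not counted under that scaling, so this count does not show how they fare there.

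The remaining IkB proteins gave 3 higher and 1 lower of 4 with ES in FDX1-OE cells, beside 44.1% and 15.1% of the 10948 genes. NFKBID, a nuclear IkB, had 18.7 and 24.0 FPKM in FDX1-OE ES, 13.5 and 12.8 in control ES, 9.75 and 10.9 in FDX1-OE DMSO, and 12.1 and 11.8 in control DMSO, a log2 fold change of 0.97 with ES in FDX1-OE cells (adjusted p = 2.362e-04). NFKBIZ (0.87) and BCL3 (0.54) also rose. NFKBIB, which codes for IkB-beta, fell by 0.29 on the log2 scale (adjusted p = 0.0239). Over the alternatives the calls of NFKBIB and BCL3 were lost, at adjusted p up to 0.192 and 0.0696.

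Ligands gave 4 higher and none lower of 6 tested with ES in FDX1-OE cells, beside 44.1% and 15.1% of the 10948 genes. LTA, which codes for lymphotoxin-alpha, had 93.8 and 108.6 FPKM in FDX1-OE ES, 69.9 and 64.9 in control ES, 77.2 and 79.0 in FDX1-OE DMSO, and 84.9 and 86.7 in control DMSO. Like NFKBIA it lay above DMSO with ES in FDX1-OE cells (0.37, adjusted p = 0.00410) and below it in control cells (-0.34, adjusted p = 0.0385), though over the alternative settings these p reached 0.437 and 0.245. TNF rose by 0.60 with ES in FDX1-OE cells (adjusted p = 5.145e-04), with an interaction of 0.63 (adjusted p = 0.0129, up to 0.0596 over the alternatives). TNFSF13 (0.67) and TNFSF9 (0.28, adjusted p = 0.0429) were the other 2 called, with adjusted p that reached 0.130 and 0.902.

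Of 12 receptors, 8 reached 1 FPKM in at least 2 DMSO libraries. Of these 8, 6 were higher and 1 lower with ES in FDX1-OE cells, beside 44.1% and 15.1% of the 10948 genes. TLR1 had 14.4 and 13.6 FPKM in FDX1-OE ES, 8.91 and 8.74 in control ES, 6.79 and 6.69 in FDX1-OE DMSO, and 8.43 and 6.28 in control DMSO, a log2 fold change of 0.95 with ES in FDX1-OE cells (adjusted p = 2.916e-04). CD27, a co-stimulatory TNF receptor, rose by 0.47 (adjusted p = 0.00106, up to 0.0781 over the alternatives). TNFRSF13B, which codes for TACI, is 1 of the 4 receptors that passed only through ES libraries, with log2 fold changes of 1.06 with ES in FDX1-OE and 0.86 in control cells, given as values with no test. TNFRSF1A, the main TNF receptor, reached only 1.39 and 1.42 FPKM in FDX1-OE ES, with 0.312 and 0.367 in control ES, 0 and 0.0388 in FDX1-OE DMSO, and 0.0578 and 0.0782 in control DMSO (log2 fold change 1.24 with ES in FDX1-OE cells), and is likewise given with no test.

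Signalling adaptors and kinases of the canonical arm gave 6 higher and 1 lower of 18 with ES in FDX1-OE cells, beside 44.1% and 15.1% of all genes chosen the same way. RIPK1 (0.62, adjusted p = 1.397e-04), TAB2 (0.62), MYD88 (0.57) and TAB3 (0.64), which pass signals from TNF and Toll-like receptors to the kinases, were called. In the non-canonical arm 2 of 5 were higher, the kinase gene MAP3K14 (0.55, adjusted p = 6.545e-04) and BIRC2 (0.67, adjusted p = 0.00194), while TRAF2 gave 0.20 (adjusted p = 0.161) and TRAF3 0.11 (adjusted p = 0.304). Ubiquitin regulators gave 6 higher and 2 lower of 10, with RBCK1 at 1.08, CYLD, a deubiquitinase, at 1.04, ITCH at 0.91 and TAX1BP1 at 0.40, whose adjusted p reached 0.183 over the alternatives.

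Of 25 other known NF-kB targets, 19 reached 1 FPKM in at least 2 DMSO libraries. Of these 12 were higher and 1 lower with ES in FDX1-OE cells, beside 44.1% and 15.1% of the 10948 genes. Against control ES 16 were higher and 1 lower, beside 28.5% and 11.4%. The medians were 0.46 and 0.60, beside 0.21 and 0.13. CCL22 and CCR7, among the other 6, are given as values with no test. The dendritic and B-cell chemokine gene CCL22 had 4.57 and 5.00 FPKM in FDX1-OE ES, 1.01 and 1.24 in control ES, 0.123 and 0.0855 in FDX1-OE DMSO, and 0.235 and 0.255 in control DMSO. CCR7, a receptor that guides lymphocytes to lymph nodes, had 5.19 and 8.001 FPKM in FDX1-OE ES, 0.575 and 0.723 in control ES, and 0.0731 FPKM or less in all 4 DMSO libraries. For both genes control ES lay between FDX1-OE ES and the DMSO groups.

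CCL22 had a log2 fold change of 2.39 with ES in FDX1-OE cells and CCR7 one of 2.87. CD86, a co-stimulatory ligand, had 35.3 and 34.6 FPKM in FDX1-OE ES, 19.5 and 22.8 in control ES, 13.6 and 13.6 in FDX1-OE DMSO, and 14.9 and 13.2 in control DMSO, a log2 fold change of 1.30 with ES in FDX1-OE cells. The lymphocyte regulator IRF4 gave 1.57. CD86 and IRF4 were also called higher with ES in control cells, at 0.56 and 0.51, with adjusted p of 0.0163 and 0.0414 that reached 0.134 and 0.246 over the alternatives. Each had a positive interaction (0.74 and 1.06) that passed under all 15 alternatives run.

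**Figure D4:**
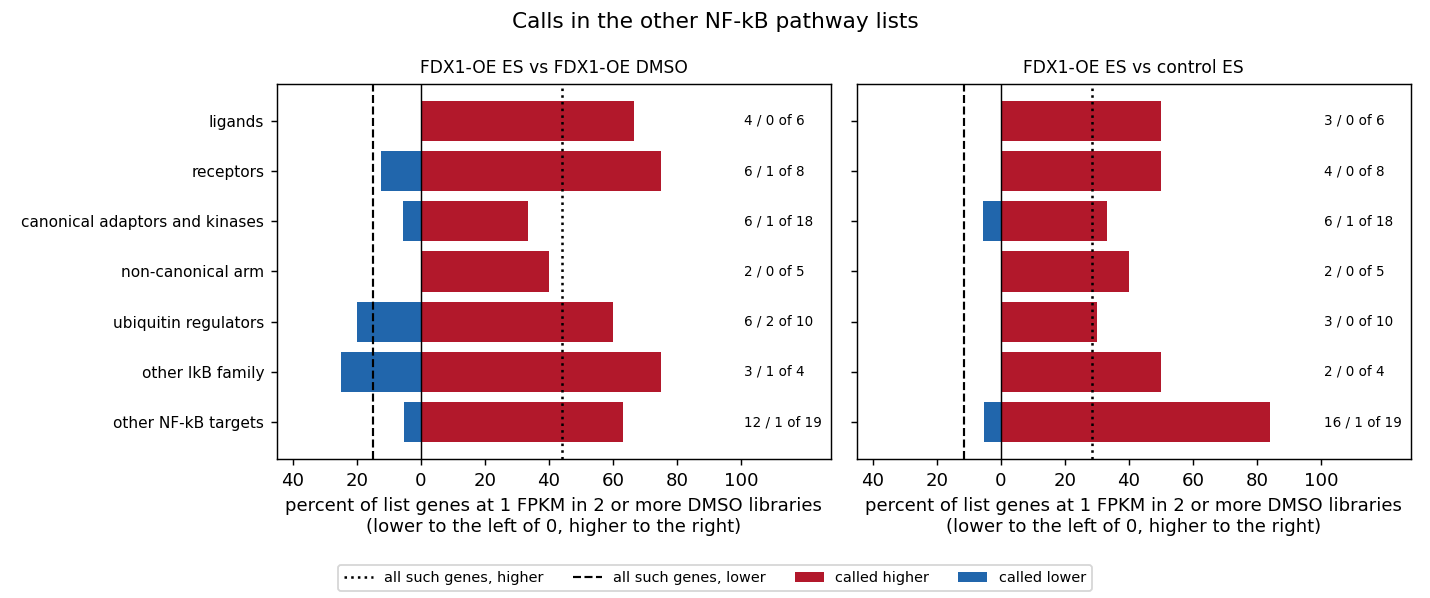
Percent of genes called higher (right of 0) and lower (left of 0) in 7 lists of NF-kB pathway genes, for FDX1-OE ES against FDX1-OE DMSO (left) and against control ES (right), over genes at 1 FPKM or more in at least 2 DMSO libraries, with the shares of all such genes as dotted and dashed lines. Counts beside the bars are higher, lower and total, and other NF-kB targets stand at 16 higher of 19 against control ES, where 28.5% of all such genes were higher. The lists were chosen with earlier results of these data known.

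Over the 8 libraries, the genes whose log2 level ran most like that of NFKBIA, among 6725 genes with a mean log2 level of at least 3, were SLBP (Pearson's r = 0.973), LTA (0.967) and NFKB1 (0.963). For NFKB2 they were LRP10 (0.996), ICAM1 (0.989) and CDC45 (0.982), and for TRAF1 they were SNAPC5 (0.994), COX10 (0.993) and HLA-E (0.992). HLA-E averaged 75.1 ± 15.2 FPKM in FDX1-OE ES, 45.3 ± 0.393 in control ES, 45.5 ± 0.925 in FDX1-OE DMSO and 45.1 ± 2.87 in control DMSO (SD, n = 2 each). Within 0.01 of the third place lay 6 genes for NFKBIA, 4 for NFKB2 and 16 for TRAF1, so the order around it is not resolved. These correlations rest on the same 8 libraries and are given as descriptions.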

How the data were processed

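RNA from 8 WSU-DLCL2 samples was sequenced, with TRIzol extraction and the VAHTS Universal V6 kit, per the labels' protocols. The hg19 build and the tools HISAT2, HTSeq and R 3.2.0 are listed in the submitters' processing notes without their roles. The authors deposited 1 value per gene and library, read here as FPKM from the values themselves because no header names a unit. The absolute depth, and so any counting interval, is unknown. The commonest low value was 0.138 to 0.164 FPKM in the libraries. It depends on gene length as well as depth, so it does not show whether their relative depths were close.

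Values were used as log2(FPKM + 1), which understates changes of low genes. The test covered 12063 genes that reached 1 FPKM in 2 or more libraries. A model of 4 group means over the 8 libraries was fitted with limma 3.58.1 (R 4.3.3) and a mean-variance trend, two-sided, with 4 residual and 4.25 prior degrees of freedom. Benjamini-Hochberg adjustment ran over all genes tested, with calls below 0.05. The fit was tested on simulated data. In each pathway list the 4 genes with the smallest p for ES in FDX1-OE cells were named; 1 further gene is not reported here. Genes most like NFKB2, NFKBIA and TRAF1 were the 3 with the highest Pearson correlation, clone, accession and shared symbols left out. The 10 genes, the lists and the tests were chosen with earlier results of these data known.

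Alternatives were another pseudocount (0.1), no filter on low values, 3 other scalings of libraries, library weights, only the groups compared, a replicate block and each library left out. Gene positions are GENCODE 29 on GRCh38, used for names and places only, and differ from the submitters' build. Promoter sequences are from RefSeq, GRCh38.p14, and binding motifs were matched by letters alone.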

Additional observations from a re-analysis of the deposited data

Results flagged for a closer look

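The ES effect differed between FDX1-OE and control cells, by limma's interaction test, for 6 of the 10 genes. Over all genes 13.9% were called positive and 5.06% negative. The calls of NFKB2, NFKBIE and TRAF1 were lost under 8, 9 and 5 of 15 alternatives. The difference of log2 fold changes, FDX1-OE minus control, was 0.57 for NFKB1, 0.68 for NFKB2, 1.14 for NFKBIA, 0.67 for NFKBIE, 1.02 for TNFAIP3 and 1.00 for TRAF1. For NFKBIA the calls had opposite directions, higher with ES in FDX1-OE cells and lower in control cells. For NFKB1, NFKB2, NFKBIE and TNFAIP3 the change in control cells was negative but not called, and for TRAF1 it was 0.07. Groups of 2 libraries are too small for a check of outlying samples.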

How the results depend on the processing

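Of 790 values of single genes under alternative settings, 684 kept their direction and side of the threshold, 68 lost it, 23 gained it and 15 changed sign. Counts of genes called moved by over 1.5 times only as follows, and the cause was not tested. For ES in control cells (1 in the main analysis) the count was 0 with no filter on low values, 2 under median-ratio scaling, 5 with library weights, 4 with only the groups compared, and 0 to 4 with a library left out. For ES in FDX1-OE cells (9) it was 4 under median-ratio scaling. For the interaction (6) it was 3 with no filter and 3 to 10 with a library left out.

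The sign changes were all in log2 fold changes that were not called, and their ranges are those with a library left out. With ES against DMSO in control cells, RELA gave -0.11 under median-ratio scaling, -0.032 under quantile normalization and a range of -0.082 to 0.084. TRAF1 there gave -0.034, -0.066 and a range of -0.047 to 0.18. RELB with ES in FDX1-OE cells gave -0.21, -0.084 and a range of -0.097 to 0.22. REL in FDX1-OE against control cells in ES gave 0.080 with equal FPKM totals and a range of -0.19 to 0.091. In DMSO, FDX1-OE against control, the range was -0.076 to 0.0058 for NFKB2, -0.0037 to 0.077 for RELB and -0.036 to 0.19 for TRAF1.

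The replicate block left the counts at 0, 9, 1, 9 and 6 for FDX1-OE against control in DMSO and in ES, ES in control and FDX1-OE cells, and the interaction. Same-numbered libraries of different groups had deviations correlated between -0.05 and 0.08, so little deviation was shared by number. Such correlations cannot show whether those libraries were cultured or processed together. Over all genes, median-ratio scaling changed the split of higher and lower calls from 5682 and 1652 to 3069 and 3287 for ES in FDX1-OE cells, from 3757 and 1251 to 1818 and 2218 for FDX1-OE against control in ES, from 813 and 121 to 436 and 394 for ES in control cells, and from 1681 and 610 to 706 and 1134 for the interaction. With 2 libraries a group and unknown depth, small changes of low genes are not resolved.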

Other observations

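MYC, which codes for a growth-promoting transcription factor and is listed among NF-kB targets, was the 1 lower call in that list with ES in FDX1-OE cells, and was chosen after its values were seen. It had 59.2 and 38.5 FPKM in FDX1-OE ES, 89.7 and 76.1 in control ES, 109.1 and 116.5 in FDX1-OE DMSO, and 112.8 and 106.8 in control DMSO. Both ES groups lay below both DMSO groups, and FDX1-OE ES was the lowest. The log2 fold change of MYC was -1.22 (SE 0.17, limma adjusted p = 5.180e-04) for ES in FDX1-OE cells and -0.78 (adjusted p = 0.00877) for FDX1-OE against control in ES. In control cells it was -0.41 (adjusted p = 0.171), and the interaction was -0.82 (adjusted p = 0.0493). Over the alternatives the call with ES in FDX1-OE cells held, while the adjusted p of the call against control ES reached 0.0678 and that of the interaction 0.181. CD83, a maturation marker of antigen-presenting cells, also chosen after its values were seen, had 0.42 (adjusted p = 0.00354) for ES in FDX1-OE cells and -0.39 (adjusted p = 0.0372) in control cells, calls whose adjusted p reached 0.197 and 0.208 over the alternatives.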
